A study of Mus musculus with 12 samples.

Results

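Toll-like receptors are germline-encoded sensors of microbial and self-derived molecules. Of the 43346 genes in the deposited count table of this mouse brain study, the rows named Tlr1 to Tlr9 and Tlr13 were taken by their gene symbol, which gave 10 genes, and all 10 had enough reads to pass the filter on low counts, as 22553 genes of the table did. A receptor binds its ligand through a horseshoe of leucine-rich repeats and signals through a cytoplasmic TIR domain, which recruits the adaptor MyD88 or, for TLR3 and partly TLR4, the adaptor TRIF. From MyD88 the signal runs through IRAK kinases and TRAF6. Both adaptors lead to NF-kB and interferon regulatory factors and so to the production of cytokines and interferons. TLR1, TLR2, TLR4, TLR5 and TLR6 act mainly at the cell surface, whereas TLR3, TLR7, TLR8, TLR9 and TLR13 act in endosomes. In brain, microglia express most of these receptors, and astrocytes and neurons are also known to express TLR3.

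RNA was sequenced from 12 libraries in 3 groups of 4. The Old_CP2 group was 23 months old and had drunk water with CP2, a small-molecule inhibitor of mitochondrial complex I, from the age of 9 months, at a dose of 25 mg/kg/day with 0.1% PEG as vehicle, under the strain label C57BL/6;SJL-Tg. The Old group, also 23 months old and under that strain label, received 0.1% PEG alone from 9 months. The Young group was 3 months old, untreated and labelled C57BL/6. All 3 groups are labelled wild type and titled NTG, while the design text of the series speaks of APP/PS1 mice, and the labels were followed here. Each library came from a brain cross-section that held hippocampus and cortex, and all 10 markers of these regions passed the filter. The labels do not say that each library is a separate animal, so p-values measure the spread between these libraries. Age, strain label and vehicle differed together between the old groups and the Young group and cannot be told apart.

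Depth was 78021395 to 99449665 counts in Old_CP2, 70548781 to 94741585 in Old and 77469073 to 91549618 in Young. Values are library-normalised CPM, a share of reads scaled to depth, and 1 CPM stood for 67.99 to 98.19 reads. The libraries stood apart in choroid plexus markers, summed over 9 genes: 29.5 to 840 CPM in Old_CP2, 33.2 to 980 CPM in Old and 1232 to 1985 CPM in Young. The 4 libraries lowest in them were Old_CP2 11, Old_CP2 15, Old 7 and Old 9. Receptor values without these libraries, and with the mean log2 CPM of the 9 genes as a covariate, are given with the marker lists.

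The genes lie on 7 chromosomes, at mm10 positions given in the deposited table. Tlr2 (ENSMUSG00000027995) spans 83836272 to 83841767 on chromosome 3, minus strand. Tlr3 (ENSMUSG00000031639) spans 45395665 to 45410608 on chromosome 8, minus strand, and Tlr4 (ENSMUSG00000039005) spans 66827584 to 66930284 on chromosome 4, plus strand. Tlr1 (ENSMUSG00000044827, 64924811 to 64932761) and Tlr6 (ENSMUSG00000051498, 64953106 to 64960048) are neighbours on the minus strand of chromosome 5, separated by 20.3 kb. Tlr8 and Tlr7 (ENSMUSG00000044583, 167304929 to 167330558) are neighbours on the minus strand of the X chromosome, separated by 40.6 kb. Of the 101-base words in their GENCODE vM21 transcripts, 7.8% of those of Tlr1 also occur in Tlr6 and 7.01% of those of Tlr6 in Tlr1, so reads from these stretches cannot be assigned to either gene with certainty. Tlr3 is overlapped on the opposite strand by Gm45542, which holds 3.28% of its words, and the library kit did not mark strand, so reads of the pair cannot be told apart there. The other 7 genes shared no such word with another gene.

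Promoter windows from 250 bases before to 50 after the start site were read from RefSeq (GRCm38.p6, the assembly also called mm10), in which 8 of the 10 genes matched, with 10 windows in all. Tlr4, which was higher in both old groups, and Tlr7 had no window, so their promoters were not searched. Windows of Tlr2, Tlr3 and Tlr1, which were higher in both old groups, are shown 5′ to 3′ on the gene's strand. Capitals mark matches, on either strand, to the NF-kB consensus or to GAGGAA, the core recognised by the myeloid factor PU.1.
Tlr2, chr3:83841559-83841858, minus strand: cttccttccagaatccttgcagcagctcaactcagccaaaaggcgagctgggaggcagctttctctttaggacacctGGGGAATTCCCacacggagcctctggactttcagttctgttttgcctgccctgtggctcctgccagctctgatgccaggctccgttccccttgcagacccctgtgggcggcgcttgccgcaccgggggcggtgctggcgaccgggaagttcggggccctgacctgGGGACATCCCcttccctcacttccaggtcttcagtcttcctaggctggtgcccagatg
Tlr3, chr8:45410331-45410630, minus strand: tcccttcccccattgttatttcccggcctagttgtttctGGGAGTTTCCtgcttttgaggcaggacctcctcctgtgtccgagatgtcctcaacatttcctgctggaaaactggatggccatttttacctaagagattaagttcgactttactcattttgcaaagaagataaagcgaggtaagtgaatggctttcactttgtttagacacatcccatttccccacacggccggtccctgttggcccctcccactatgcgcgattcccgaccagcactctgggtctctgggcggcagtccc
Tlr1, chr5:64933509-64933808, minus strand: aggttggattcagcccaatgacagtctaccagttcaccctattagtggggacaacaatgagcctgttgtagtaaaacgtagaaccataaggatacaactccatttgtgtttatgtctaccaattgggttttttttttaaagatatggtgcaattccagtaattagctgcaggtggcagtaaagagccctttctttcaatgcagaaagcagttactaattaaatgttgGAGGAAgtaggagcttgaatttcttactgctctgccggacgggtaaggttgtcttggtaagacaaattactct
The Tlr2 window held 4 matches to the NF-kB consensus, of which 3 overlap each other at −173 and −172 from the start site, 1 of them being the same palindrome read on the other strand, and the fourth stands at −8. The Tlr3 window held 1 at −211. Among all 32851 windows of this length, 4.51% held the NF-kB consensus. The Tlr1 window shown belongs to a start site outside the gene span of the deposited table and held GAGGAA at −23, and the other Tlr1 window held no match. GAGGAA also occurred in the windows of Tlr8, Tlr9 and Tlr13, and in 28.3% of all windows. An interferon response core, GAAANNGAA, was found at −115 and −109 in 1 of the 2 windows of Tlr6 and at −67 in that of Tlr8, against 8.56% of all windows. None of the 3 motifs was found in the Tlr5 window. These matches describe letters only.

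Tlr3, the sensor of double-stranded RNA, was the most abundant receptor transcript in every group. The lengths behind these levels are those of the deposited table, and Tlr1, Tlr3 and Tlr6 span more in GENCODE vM21, and how the order would stand with those lengths was not tested. On the scale of CPM per kilobase of gene length, its level averaged 3.84 in Old_CP2, 3.89 in Old and 3.10 in Young, with a range that did not overlap that of the next gene in any group. It made up 50.4% of the summed CPM of the 10 genes in Old_CP2, 51.8% in Old and 53.8% in Young. In Old_CP2, the order of levels per kilobase continued with Tlr7 at 1.08, Tlr2 at 0.955, Tlr13 at 0.642, Tlr9 at 0.577, Tlr4 at 0.419, Tlr1 at 0.313, Tlr6 at 0.295, Tlr5 at 0.105 and Tlr8 at 0.0707. Neighbours whose libraries did not overlap were Tlr3 and Tlr7, Tlr2 and Tlr13, Tlr9 and Tlr4, and Tlr6 and Tlr5.

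In Old, the order was Tlr3, then Tlr2 at 0.903 CPM per kilobase, Tlr7 at 0.874, Tlr13 at 0.724, Tlr9 at 0.613, Tlr4 at 0.438, Tlr1 at 0.324, Tlr6 at 0.234, Tlr5 at 0.117 and Tlr8 at 0.0524, and neighbours from Tlr2 down to Tlr5 overlapped. In Young, Tlr7 at 0.775 CPM per kilobase was followed by Tlr13 at 0.630, Tlr2 at 0.542, Tlr9 at 0.503, Tlr4 at 0.255, Tlr6 at 0.156, Tlr5 at 0.0942, Tlr1 at 0.0783 and Tlr8 at 0.0287. The genes from Tlr7 to Tlr9 overlapped as neighbours there, as did those from Tlr4 to Tlr1. Tlr2, which detects bacterial lipopeptides together with TLR1 or TLR6, thus stood in the third place in Old_CP2, in the second in Old and in the fourth in Young, but it overlapped its neighbours Tlr7 in both old groups and Tlr13 and Tlr9 in Young.

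**Figure D1:**
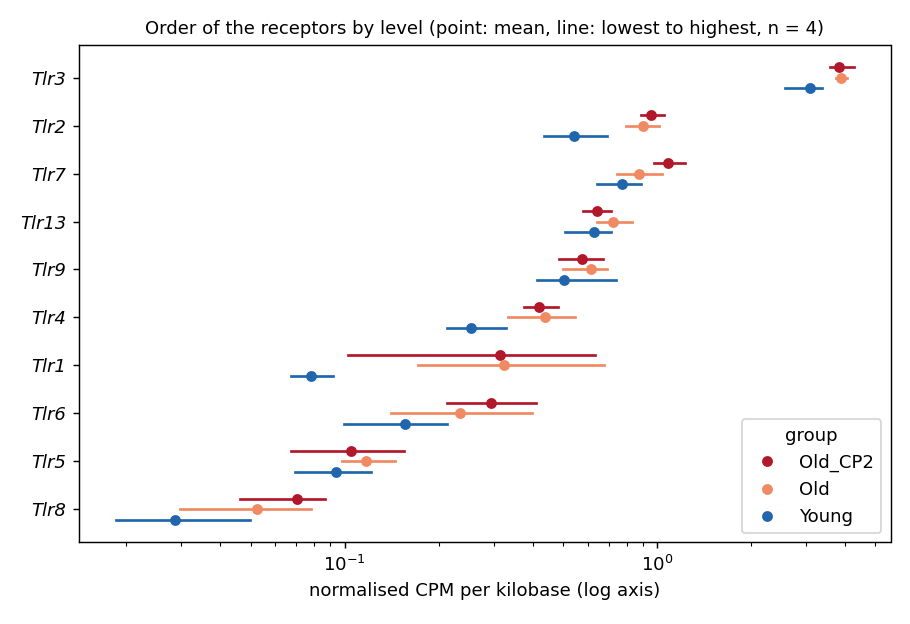
Mean level (point) and lowest to highest library (line) of each Toll-like receptor gene in normalised CPM per kilobase, on a log axis, for Old_CP2, Old and Young (n = 4 each). Tlr3 lies apart from the rest at 3.84, 3.89 and 3.10 in Old_CP2, Old and Young, while Tlr8 lies lowest at 0.0707, 0.0524 and 0.0287.

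The first comparison, Old against Young, asks what differs in the brain of aged, vehicle-treated mice. Tlr1, Tlr2, Tlr3 and Tlr4 were higher in Old, by 1.26 to 4.13 fold, and none of the 10 genes was lower. Against these 4 of 10 genes, 3.96% of all 22553 genes tested were called higher at an adjusted p under 0.05 in edgeR's quasi-likelihood test with Benjamini-Hochberg adjustment, the test behind every adjusted p here unless another tool is named. The same 4 genes were those with every Old library above every Young library, a pattern seen in 6.94% of all genes. All 10 log2 fold changes were positive, with a median of 0.46, while the median of all genes was −0.003. In bulk tissue, a larger number of expressing cells and more RNA per cell cannot be told apart.

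Among the surface receptors, Tlr2 was measured at 3.05, 2.82, 2.39 and 2.62 CPM in Old libraries 7, 8, 9 and 10, against 1.31, 1.48, 2.08 and 1.66 CPM in Young libraries 1, 3, 4 and 5. The lowest Old library lay above the highest Young library. The log2 fold change was 0.74 ± 0.14 (SE), or 1.67 fold, with an adjusted p of 0.0101 in edgeR. Tlr2 was the single receptor that stayed past the threshold when any 1 of the 8 libraries was left out, with an adjusted p of 0.00612 to 0.0288.

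Tlr4 is the receptor of bacterial lipopolysaccharide, which it binds with MD-2 and CD14. It had 3.04, 2.32, 2.52 and 1.85 CPM in the Old libraries and 1.18, 1.21, 1.44 and 1.83 CPM in the Young libraries. The groups were separated by a narrow margin, since Old 10 (1.849 CPM) and Young 5 (1.829 CPM) nearly met. The log2 fold change was 0.78 ± 0.18 (SE; adjusted p = 0.0204 in edgeR), and the call ended without Young 1, Young 3, Young 4 or Old 7, at adjusted p of 0.0501 to 0.0586.

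Tlr1, the partner of TLR2 for triacylated lipopeptides, had 1.79, 0.544, 0.645 and 0.457 CPM in the Old libraries, against 0.207, 0.243, 0.179 and 0.201 CPM in the Young libraries. The Young libraries were close together at 14 to 22 reads each, while 162 reads came from Old 7 and 37 to 52 from each of the other Old libraries. The log2 fold change was 2.05 ± 0.56 (SE; adjusted p = 0.0468 in edgeR), the largest among the 10 genes. Without Old 7 it was 1.40 with an adjusted p of 0.144, and the call was kept only when Old 10 was the library left out.

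Tlr6, the partner of TLR2 for diacylated lipopeptides, had 1.04, 0.368, 0.620 and 0.414 CPM in the Old libraries and 0.259, 0.553, 0.422 and 0.390 CPM in the Young libraries, which overlapped. Its log2 fold change of 0.59 ± 0.35 (SE) did not pass the test (adjusted p = 0.366 in edgeR), and without Old 7 it was 0.205. Tlr5, the flagellin receptor, ranged from 0.471 to 0.696 CPM in Old and from 0.332 to 0.583 CPM in Young (log2 fold change 0.32 ± 0.28 SE, adjusted p = 0.582 in edgeR). Over the 5 surface receptors, 3 were called higher and the median log2 fold change was 0.74.

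Among the endosomal receptors, 1 of 5 was called higher and the median log2 fold change was 0.28. This was Tlr3, with 17.4, 17.8, 16.5 and 16.8 CPM in the Old libraries and 11.3, 14.9, 13.9 and 14.4 CPM in the Young libraries. It is the best-measured gene of the family, at 873 to 1659 reads per library, and the 4 Old libraries lay within a narrow band above all Young libraries. The log2 fold change was 0.33 ± 0.09 (SE; adjusted p = 0.0377 in edgeR), the smallest of the 4 called, and the call ended in 7 of 8 fits that left out 1 library, being kept without Young 3.

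The other endosomal receptors were not called. Tlr7, which senses single-stranded RNA, ranged from 3.03 to 4.25 CPM in Old and from 2.63 to 3.63 CPM in Young (log2 fold change 0.17 ± 0.13 SE, adjusted p = 0.487 in edgeR). Tlr8, which has the same kind of ligand in humans, had 10 to 19 reads in Old libraries and 6 to 14 in Young libraries, and its log2 fold change of 0.85 ± 0.41 (SE) missed the threshold (adjusted p = 0.256 in edgeR). Tlr9, the sensor of unmethylated CpG DNA, ranged from 1.74 to 2.41 CPM in Old and from 1.44 to 2.58 CPM in Young, and the highest value of both groups was that of Young 3. Tlr13, which detects bacterial ribosomal RNA, ranged from 2.62 to 3.39 CPM in Old and from 2.07 to 2.91 CPM in Young. The adjusted p was 0.46 for Tlr9 and 0.423 for Tlr13 in edgeR.

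**Figure D2:**
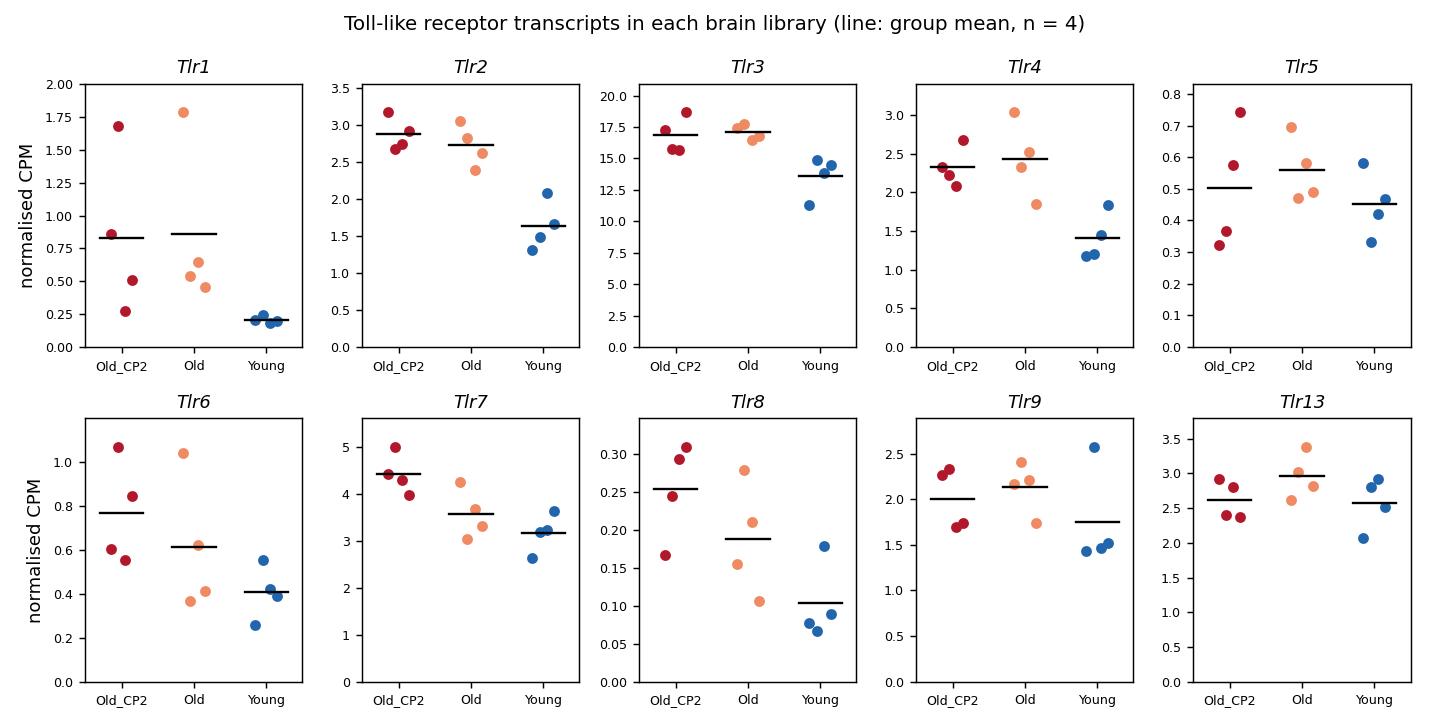
Normalised CPM of each Toll-like receptor gene in every library (points) with the group mean (line) for Old_CP2, Old and Young, each panel on its own axis from 0. Tlr2 sits at 2.68 to 3.17 in Old_CP2, 2.39 to 3.05 in Old and 1.31 to 2.08 in Young, and Tlr1 is spread in both old groups with single libraries at 1.68 in Old_CP2 and 1.79 in Old.

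The second comparison, Old_CP2 against Old, asks what differed with the complex I inhibitor at 23 months. None of the 10 receptor genes was called in either direction, and this held in each alternative that was run, DESeq2 and limma voom among them. Few genes were called at all in this comparison, 10 of 22553 or 0.0443% (6 to 38 when 1 library was left out, the highest without Old_CP2 15 and the lowest without Old 9). None of the 10 receptors had every Old_CP2 library above every Old library, as 1.62% of all genes did. None of the 10 had the reverse pattern either, for which the share over all genes was not computed. The median log2 fold change was −0.035, against 0.002 over all genes, and 4 of 10 values were positive.

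Tlr7 was the single receptor at an unadjusted p under 0.05. It had 4.41, 5.00, 4.28 and 3.98 CPM in Old_CP2 libraries 11, 12, 13 and 15, against 4.25, 3.03, 3.68 and 3.32 CPM in the Old libraries. Old 7 lay within the Old_CP2 range and the other 3 Old libraries below it. The log2 fold change was 0.31 ± 0.13 (SE; adjusted p = 0.73 in edgeR).

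For the receptors higher in Old than in Young, intervals show how large a difference these libraries leave possible. Tlr2 averaged 2.88 ± 0.22 CPM in Old_CP2 and 2.72 ± 0.28 CPM in Old (SD, n = 4 each), and the 95% interval of its log2 fold change ran from −0.22 to 0.38. Tlr3 averaged 16.9 ± 1.43 CPM in Old_CP2 and 17.1 ± 0.583 CPM in Old (interval −0.205 to 0.16). Tlr4 averaged 2.33 ± 0.25 CPM in Old_CP2 and 2.43 ± 0.49 CPM in Old (interval −0.435 to 0.31). The interval of Tlr1 was wide, −1.14 to 1.04, with 0.831 ± 0.617 CPM in Old_CP2 and 0.859 ± 0.626 CPM in Old. Among the rest, the log2 fold changes were −0.17 for Tlr5, 0.32 for Tlr6, 0.45 for Tlr8, −0.08 for Tlr9 and −0.17 for Tlr13, with adjusted p of 0.867 or above in edgeR. A missed threshold does not show that the groups are alike.

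The third comparison, Old_CP2 against Young, shares the Young libraries with the first and the Old_CP2 libraries with the second. Tlr1, Tlr2, Tlr3, Tlr4 and Tlr7 were called higher, 5 of 10 genes, while 4.63% of all genes were called higher. The same 5 had all Old_CP2 libraries above all Young libraries, as 8.42% of all genes did. The log2 fold changes were 0.82 ± 0.14 for Tlr2, 0.72 ± 0.18 for Tlr4, 1.997 ± 0.56 for Tlr1, 0.31 ± 0.09 for Tlr3 and 0.48 ± 0.13 for Tlr7 (SE). Their adjusted p in edgeR were 0.00494 for Tlr2, 0.0269 for Tlr4, 0.0469 for Tlr1, 0.0451 for Tlr3 and 0.0386 for Tlr7.

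In the library values behind these calls, Tlr2 had 3.17, 2.68, 2.74 and 2.91 CPM in Old_CP2 libraries 11, 12, 13 and 15, all above the highest Young value of 2.08 CPM. Tlr4 had 2.33, 2.22, 2.08 and 2.68 CPM, and Tlr3 had 17.3, 15.8, 15.7 and 18.7 CPM in the same libraries. Tlr7 had 3.98 to 5.00 CPM in the Old_CP2 libraries and 2.63, 3.19, 3.22 and 3.63 CPM in the Young libraries, and the groups did not meet. Tlr1 had 0.864, 1.68, 0.271 and 0.508 CPM in the Old_CP2 libraries, so that Old_CP2 13 came close to the Young maximum of 0.243 CPM while Old_CP2 12 had 165 reads of the gene. Tlr2 kept its call when any 1 library was left out, whereas that of Tlr1 was kept in 2 of 8 such fits, that of Tlr3 in 1, that of Tlr4 in 2 and that of Tlr7 in 2. The libraries left out in the fits that kept a call were Old_CP2 13 or 15 for Tlr1, Young 3 for Tlr3, Young 5 or Old_CP2 13 for Tlr4, and Young 5 or Old_CP2 15 for Tlr7. Without Old_CP2 12 the Tlr1 value was 1.40 (adjusted p = 0.146 in edgeR).

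Tlr8 had 16, 24, 27 and 25 reads in the Old_CP2 libraries and 6, 6, 14 and 8 in the Young libraries. Its lowest Old_CP2 value, 0.167 CPM, lay below the highest Young value, 0.179 CPM. The log2 fold change was 1.29 ± 0.40 (SE), 2.45 fold, and just missed the threshold (adjusted p = 0.0675 in edgeR). It passed when Young 4 was left out (adjusted p = 0.0402). Tlr6 averaged 0.767 ± 0.238 CPM in Old_CP2 and 0.406 ± 0.121 CPM in Young (SD, n = 4 each; log2 fold change 0.91, adjusted p = 0.134 in edgeR), and Tlr5, Tlr9 and Tlr13 had log2 fold changes of 0.15, 0.20 and 0.03.

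**Figure D3:**
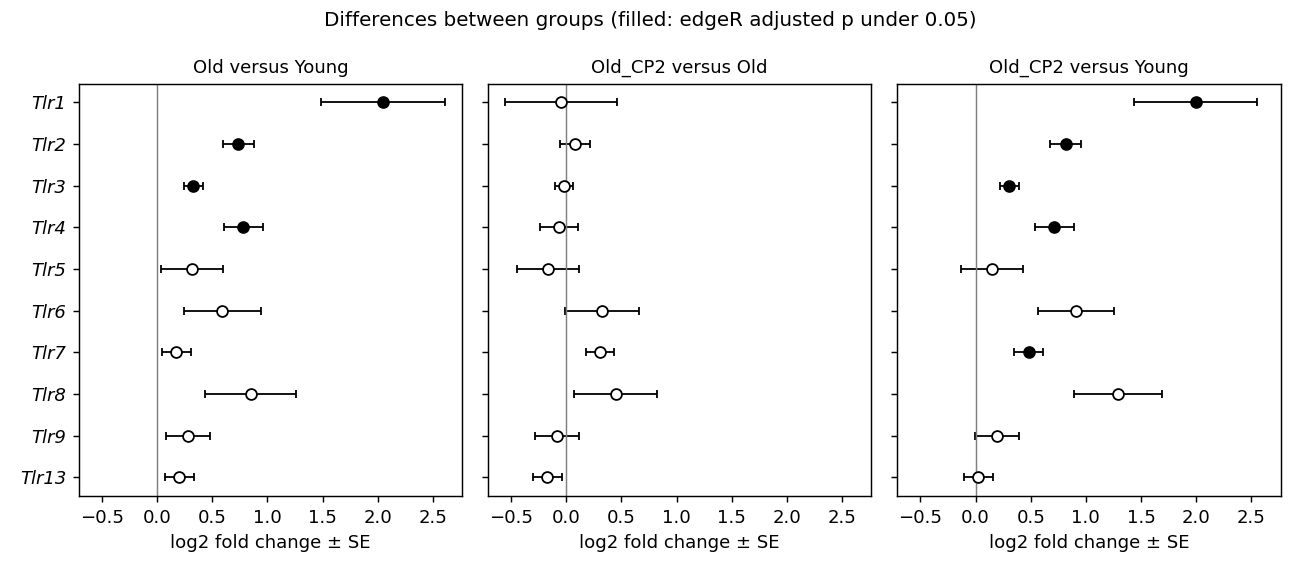
Log2 fold change with its standard error for each gene in Old versus Young, Old_CP2 versus Old and Old_CP2 versus Young; filled points have an edgeR adjusted p under 0.05. There are 4 filled points in the first panel, 0 in the second and 5 in the third, and the values of Tlr1 carry the widest errors among the filled ones.

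Tlr1 and Tlr6 shared their highest libraries. Within Old, library 7 was highest in both genes, at 1.79 CPM of Tlr1 and 1.04 CPM of Tlr6, and within Old_CP2 library 12 was highest in both, at 1.68 CPM of Tlr1 and 1.07 CPM of Tlr6. The genes on either side did not share both peaks: Klf3 had 15.9 CPM in Old 7 and 18.8 CPM in Old_CP2 12 within a range of 15.9 to 18.8 over all 12 libraries, and Fam114a1 had 6.27 CPM in Old 7 and 5.85 CPM in Old_CP2 12 within a range of 5.71 to 8.23. How far the sequence shared by Tlr1 and Tlr6 takes part was not tested.

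**Figure D4:**
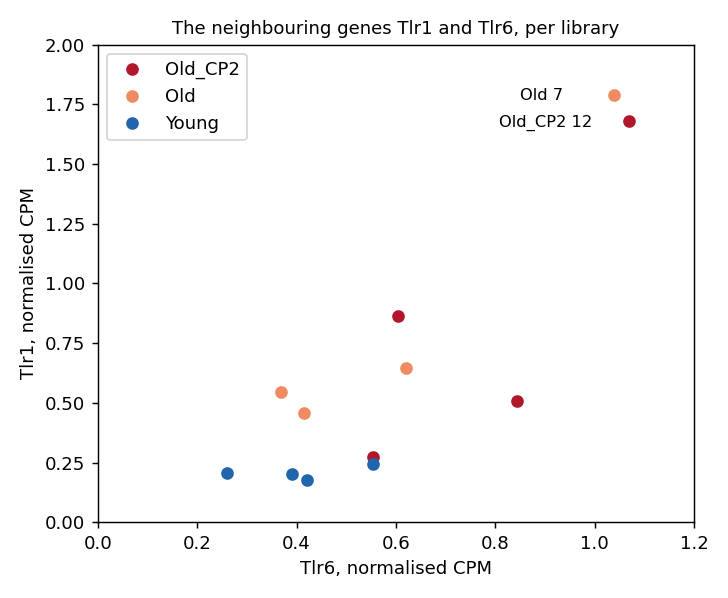
Normalised CPM of Tlr1 against that of Tlr6 in each of the 12 libraries. Old 7 and Old_CP2 12 stand apart at 1.79 and 1.68 CPM of Tlr1, while the 4 Young libraries lie at 0.179 to 0.243 CPM of Tlr1 and 0.259 to 0.553 CPM of Tlr6.

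Some microglia markers were also higher in the old groups. The summed level of 15 such genes was 425 to 447 CPM in Old_CP2, 436 to 458 CPM in Old and 328 to 406 CPM in Young, with 4 of the 15 called higher in Old than in Young, Tyrobp and Cd68 among them. Of the same 15, 0 were called between Old_CP2 and Old (edgeR, with 5 at an unadjusted p under 0.05), and 6 were called higher in Old_CP2 than in Young. All of the 15 but Siglech (−0.046) had a positive log2 fold change in Old against Young, whereas in Old_CP2 against Young Fcrls (−0.73), P2ry12 (−0.196), P2ry13 (−0.195), Siglech (−0.019) and Itgam (−0.015) were negative and not called. Summed over the 10 receptors, the level was 33.5 ± 1.70 CPM in Old_CP2, 33.1 ± 2.33 CPM in Old and 25.3 ± 2.89 CPM in Young (SD, n = 4 each). Expressed as a percentage of the summed microglia markers, it was 7.67 ± 0.531 in Old_CP2, 7.40 ± 0.674 in Old and 6.66 ± 0.260 in Young, with overlapping ranges.

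Divided in this way, the receptors separated. The ratio of the Old mean to the Young mean was 1.67 for Tlr2 CPM and 1.42 after division, for Tlr4 1.72 and 1.47, for Tlr1 4.14 and 3.52, and for Tlr3 1.26 and 1.07. The divided values of Tlr1 and Tlr2 still did not overlap between Old and Young, while those of Tlr3 and Tlr4 did. In Old_CP2 against Young, the divided values did not overlap for Tlr2 (1.54 fold), Tlr4 (1.44 fold) and Tlr7 (1.22 fold). The share of all genes whose groups stay apart after this division was not computed, so these patterns have no background to be read against. The covariate in the edgeR fit was a different measure, the mean log2 CPM of the same markers in each library. Unlike in the sums, Young 4 (4.234) and Young 5 (4.249) lay above Old_CP2 11 (4.224) in it. Between Old and Young the covariate did not overlap, at 4.338 to 4.428 in Old and 3.927 to 4.249 in Young. Marker level and group thus differed together in that comparison, and the fit cannot fully separate them. With this microglia covariate, 0 of 10 receptors were called in either comparison with Young. The log2 fold changes in Old against Young were 0.39 for Tlr2 (adjusted p = 0.398 in edgeR), 0.41 for Tlr4 (0.501), 2.48 for Tlr1 (0.296) and 0.115 for Tlr3 (0.707). The value of Tlr1 was thus not smaller than without the covariate, while those of the other 3 were. In Old_CP2 against Young the values were 0.61 for Tlr2 (adjusted p = 0.0631), 0.49 for Tlr4 (0.216), 2.24 for Tlr1 (0.133), 0.175 for Tlr3 (0.344) and 0.37 for Tlr7 (0.24) in edgeR. That fit also reduced the calls over all genes in Old against Young to 16, against 1511 without the covariate, and those in Old_CP2 against Young to 489, against 1707.

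**Figure D5:**
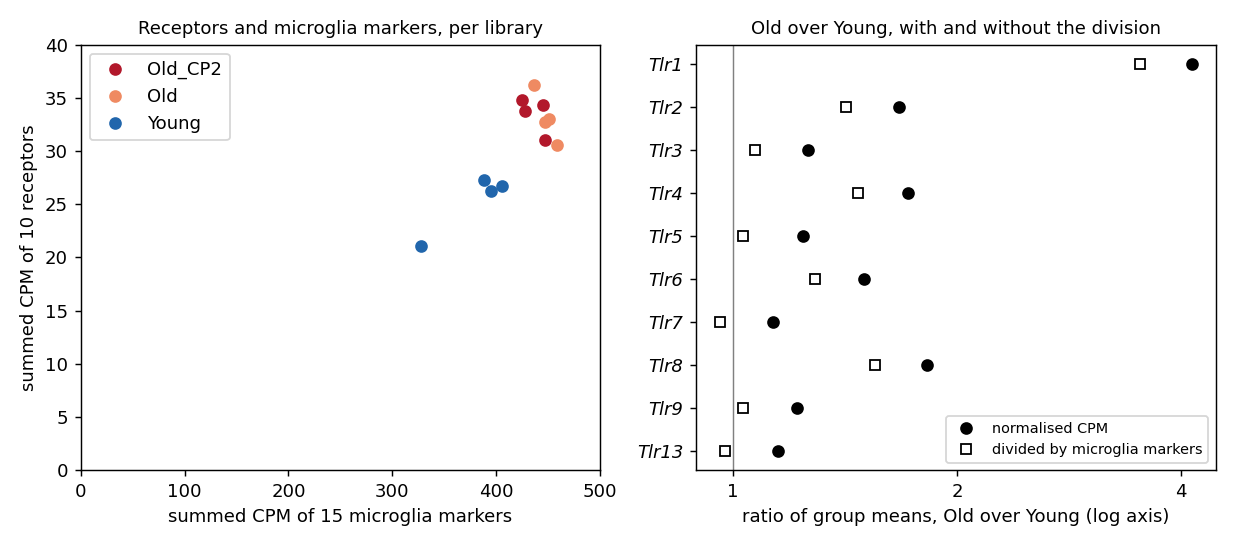
Left, summed CPM of the 10 receptors against the summed CPM of 15 microglia markers in each library; right, the ratio of the Old mean to the Young mean of each gene before (filled circles) and after (open squares) division by the markers, on a log axis. All Young libraries lie below the old ones on both axes of the left panel, and after division Tlr3, Tlr7 and Tlr13 lie at 1.07, 0.959 and 0.975.

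Markers of other cells were measured beside the receptors, and 0 markers of these lists were at 0. Border macrophage markers summed to 11.3 to 15.9 CPM in Old_CP2, 13.01 to 17.4 in Old and 7.84 to 13.7 in Young, with 1 of 7 called higher in Old than in Young (Ms4a7). Monocyte and neutrophil markers summed to 2.2 to 5.84 CPM in Old_CP2, 2.79 to 7.33 in Old and 2.16 to 3.0 in Young, with 2 of the 8 tested called higher in Old than in Young. Lymphocyte markers summed to 1.57 to 3.45 CPM in Old_CP2, 1.33 to 2.05 in Old and 1.38 to 3.73 in Young, a sum that covers opposite moves. Cd8a was called higher in Old than in Young (log2 fold change 3.09, adjusted p = 0.0174 in edgeR) and Cd4 lower (−2.03, adjusted p = 0.0122), at 0.472 ± 0.222 CPM in Old and 1.94 ± 1.11 CPM in Young (SD, n = 4 each). Between Old_CP2 and Young, Cd8a (4.07) and Cd79a (0.98) were called higher and Cd4 (−1.87) lower. Astrocyte markers summed to 4004 to 4545 CPM in Old_CP2, 4523 to 5131 in Old and 3564 to 4159 in Young, with 4 of 8 called higher in Old than in Young. In the same comparison 2 of 8 oligodendrocyte markers were called lower, 1 of 8 neuron markers was called higher and 2 lower, and 0 of 8 endothelial and 0 of 9 choroid plexus markers were called (edgeR, with 0 and 4 at an unadjusted p under 0.05). The median log2 fold change of the choroid plexus markers was −1.45. Without the 4 libraries lowest in them, 0 of 10 receptors were called in either comparison with Young, in fits that had 8 libraries. Only Old 8 and Old 10 were left in Old, and Old_CP2 12 and Old_CP2 13 in Old_CP2. The number of libraries and the choroid plexus level thus changed together. The log2 fold changes in Old against Young were then 0.74 for Tlr2, 0.56 for Tlr4, 1.26 for Tlr1 and 0.34 for Tlr3, with adjusted p of 0.0698, 0.201, 0.316 and 0.132 in edgeR in the same order. In Old_CP2 against Young they were 0.74 for Tlr2 (adjusted p = 0.0564), 0.61 for Tlr4 (0.129), 2.23 for Tlr1 (0.0568), 0.215 for Tlr3 (0.284) and 0.56 for Tlr7 (0.0665), in edgeR. The calls over all genes were then 514 in Old against Young and 709 in Old_CP2 against Young. With the mean log2 CPM of the choroid plexus markers as a covariate and all 12 libraries, 0 of 10 receptors were called in either comparison with Young. The log2 fold changes in Old against Young were 0.73 for Tlr2 (adjusted p = 0.0608), 0.63 for Tlr4 (0.158), 1.97 for Tlr1 (0.196) and 0.29 for Tlr3 (0.195) in edgeR. In Old_CP2 against Young they were 0.805 for Tlr2 (adjusted p = 0.0518), 0.545 for Tlr4 (0.217), 1.92 for Tlr1 (0.182), 0.26 for Tlr3 (0.247) and 0.45 for Tlr7 (0.186). That fit called 306 genes in all in Old against Young and 333 in Old_CP2 against Young. The part of the other listed cell types in the receptor values was not tested.

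Other genes of the pathway are given by list, beside the 3.96% of all genes called higher in Old than in Young. Among 10 co-receptors and chaperones, 1 was higher in Old than in Young: Unc93b1, the chaperone that carries endosomal receptors out of the endoplasmic reticulum, at 13.2 ± 1.51 CPM in Old and 10.1 ± 0.876 CPM in Young (SD, n = 4 each; log2 fold change 0.39, adjusted p = 0.0453 in edgeR). Ly86, the MD-1 protein bound by the receptor homologue RP105, had a log2 fold change of 0.37 (adjusted p = 0.0692), and the lipopolysaccharide co-receptor Cd14 one of 0.51 (adjusted p = 0.274). Of the 6 adaptors, 17 kinases and ubiquitin ligases and 8 negative regulators, 0 were called in Old against Young by edgeR, with 1, 4 and 2 at an unadjusted p under 0.05. Myd88 had a log2 fold change of 0.06 and Pik3ap1, the adaptor BCAP, 0.43 (adjusted p = 0.102).

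Of 9 transcription factors, Irf8, an interferon regulatory factor of microglia and other myeloid cells, was higher, at 5.98 ± 0.871 CPM in Old and 4.24 ± 0.566 CPM in Young (SD, n = 4 each; log2 fold change 0.50, adjusted p = 0.0285 in edgeR). Of the 9 tested among 15 induced cytokines and targets, Ccl4, a chemokine, was higher, with 81 reads in the Old libraries and 14 in the Young libraries (log2 fold change 2.496, adjusted p = 0.00855), and Ccl3 had a value of 1.51 (adjusted p = 0.0745). Of the 7 tested among 8 genes for endogenous ligands, S100a8 and S100a9, alarmins of neutrophils that are ligands of TLR4, were higher, with log2 fold changes of 4.98 and 4.15 (adjusted p = 0.0318 and 0.0231). Both were uneven within Old, at 0.878 ± 1.09 CPM in Old and 0.0259 ± 0.0227 CPM in Young for S100a8 and 1.17 ± 1.32 CPM in Old and 0.0635 ± 0.0689 CPM in Young for S100a9 (SD, n = 4 each). The summed monocyte and neutrophil markers were highest in Old 10, at 7.33 CPM, against 2.79 to 3.75 CPM in the other Old libraries. S100a8 had 318 reads in the Old libraries and 9 in the Young libraries, and the neutrophil granule genes Ngp and Ltf were called higher in the same comparison. The medians of these lists lay between −0.081 and 0.36 on the log2 scale, against −0.003 over all genes.

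Between Old_CP2 and Old, 0 genes of these lists were called by edgeR. At an unadjusted p under 0.05 were 4 kinases and ubiquitin ligases, 2 induced cytokines and targets, 1 negative regulator and 1 ligand gene. Summed induced cytokines and targets ran from 22.8 to 25.4 CPM in Old_CP2 and from 13.9 to 21.6 CPM in Old. These sums did not overlap, as in 1.62% of all genes. Ptgs2 held the largest part of them, averaging 14.7 CPM in Old_CP2 and 11.2 CPM in Old. In Old_CP2 against Young, Ly86 (log2 fold change 0.52), Unc93b1 (0.45) and Irf8 (0.73) were higher, as were the inhibitors of receptor signalling Irak3 (0.73) and Tnfaip3 (0.46), Tnfaip3 at 6.86 ± 0.717 CPM in Old_CP2 and 4.99 ± 0.217 CPM in Young (SD, n = 4 each). Ccl3 (1.88), Ccl4 (3.29), Ccl5 (2.995) and S100a9 (3.42) were also higher, and Tnc, an extracellular matrix protein that can act through TLR4, was lower (−0.91), with adjusted p of 0.00135 to 0.0485 for these 10 genes in edgeR. Ccl5 was uneven within its group, with 2.70 CPM in Old_CP2 15 and 0.1528 to 0.4996 CPM in the other Old_CP2 libraries. Of 6 adaptors and 17 kinases and ubiquitin ligases, 0 were called here too by edgeR, with 2 and 4 at an unadjusted p under 0.05.

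Tlr12, a receptor of the mouse that lies outside the 10 genes described, was measured at 1.28 ± 0.17 CPM in Old_CP2, 0.705 ± 0.0852 CPM in Old and 0.463 ± 0.205 CPM in Young (SD, n = 4 each). Its log2 fold change was 0.86 ± 0.25 in Old_CP2 against Old (SE; unadjusted p = 0.00456 and adjusted p = 0.476 in edgeR). In Old_CP2 against Young it was 1.47 ± 0.26 (adjusted p = 0.00562). In Old against Young it was 0.602 ± 0.265 (SE; adjusted p = 0.206 in edgeR). Summed with Tlr11, another such receptor, its libraries ran from 1.13 to 1.51 CPM in Old_CP2 and from 0.645 to 0.882 CPM in Old. These ranges did not overlap, as in 1.62% of all genes.

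The genes whose log2 CPM followed each receptor most closely were sought among 13901 genes over the 12 libraries, which share group and depth, so the correlations are a description. Tlr2 was followed most closely by Cxcl16 (Pearson r = 0.982, and 0.889 within groups), Lyz2 (0.979) and Mpeg1 (0.963). Tlr4 was followed by Cd84 (0.978, and 0.935 within groups), Zfp874b (0.95) and Lxn (0.944). For Tlr3 these were Celrr (0.956), Ctsb (0.952) and Il10rb (0.935). Tlr7 was followed by Ugt1a8, Ugt1a10 and Ugt1a2 (0.922 to 0.925), which share their last exons and so much of their reads. The closest genes reached lower values for Tlr9 (Sik2 0.87, Il6ra 0.855, Myo1e 0.847) and for Tlr13 (Lrp4 0.86, Sox9 0.841, Mir6236 0.83). Tlr1, Tlr5, Tlr6 and Tlr8 averaged under 1 CPM and were left out.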

How the data were processed

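Total RNA was sequenced as 101-base pairs after a TruSeq RNA v2 preparation, per the labels' protocols. The submitters' processing notes name bcl2fastq, TopHat, Subread and featureCounts and the build mm10; their versions and the annotation release are not given in the sources used here. Per the file headers, the authors deposited gene counts, whole numbers with no scaling, and RPKM values. RPKM values share these counts and lengths, and were used only to check the order of levels computed from them.

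Tests used the counts in edgeR 4.0.16 (R 4.3.3), with genes kept by filterByExpr with the groups, TMM factors, a quasi-likelihood fit of all 12 libraries with group as the only term, two-sided tests and Benjamini-Hochberg adjustment over all 22553 genes, called at an adjusted p under 0.05. Log2 CPM values, used for covariates and correlations, carry a prior count of 2, whereas fold changes come from the edgeR fit at its default settings. Standard errors and 95% intervals derive from the F statistic. The steps were tested on simulated data. Alternatives used DESeq2 1.42.0, limma 3.58.1 (voom), RLE factors, other filters, covariates and fewer libraries. Pairs of libraries within a group differed by more than sampling noise (lowest chi-square 14.7 per gene). Motif searches used Python 3.11.15.

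All 10 members, the called and the lowest-p genes of each pathway list, and the 3 genes most like each member were named. Members and lists were chosen with earlier results of these data known.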

Additional observations from a re-analysis of the deposited data

Results flagged for a closer look

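In groups of 4 libraries, a library was marked where its gap to the nearest other exceeded Dixon's 95% critical value as a share of the group's range. Chance marks about 1 in 20 groups, and 8 of 225 were marked, 2 of them in receptor genes.

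Old 7 had 1.791 CPM of Tlr1, while the other Old libraries had 0.457 to 0.645 CPM. Young 3 had 2.578 CPM of Tlr9, while the other Young libraries had 1.437 to 1.517 CPM, so that without Young 3 the group would lie below every Old library.

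Among pathway genes, Young 1 had 2.304 CPM of Cd36, below 3.347 to 3.518 CPM in the other Young libraries. Old 9 had 6.177 CPM of Nfkbiz, above 4.793 to 4.868 CPM. Old_CP2 11 had 0.8534 CPM of Ly96, above 0.4462 to 0.4787 CPM, and Young 1 had 0.5825 CPM of Ly96, above 0.3705 to 0.3872 CPM. Old_CP2 15 had 2.702 CPM of Ccl5, above 0.1528 to 0.4996 CPM, and Old 7 had 0.4091 CPM of Ccl5, above 0.1364 to 0.1701 CPM.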

How the results depend on the processing

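No paired analysis was possible because the groups share no replicate number in the labels. Of the 10 receptors, 4 were called in Old against Young and 5 in Old_CP2 against Young. RLE factors, DESeq2 and no filter gave 4 and 5 in the same comparisons, and limma voom, a minimum of 1 CPM in 4 libraries and a fit of the compared groups alone gave 3 and 4. The minimum of 1 CPM left Tlr1 untested. In Old against Young, limma voom tested Tlr1 and did not call it (adjusted p = 0.133). The edgeR fit of the compared groups alone did not call Tlr3 there (adjusted p = 0.0523). The microglia covariate, the choroid plexus covariate and the fit without the 4 libraries lowest in choroid plexus markers (added after the data were seen) each gave 0 in both comparisons, and leaving out 1 library gave 1 to 3 in each. The cause was not tested. With the choroid plexus covariate, Old against Young gave 0.727 for Tlr2, 0.628 for Tlr4, 1.968 for Tlr1 and 0.292 for Tlr3. Without it the values were 0.736, 0.781, 2.046 and 0.328 in the same order. Old_CP2 against Old gave 0 in all 17 alternatives. Over all genes, DESeq2 called 2479, 108 and 2647 in Old against Young, Old_CP2 against Old and Old_CP2 against Young, against 1511, 10 and 1707 in edgeR, and leaving out 1 library gave 855 to 1258, 6 to 38 and 827 to 1590.

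Signs turned only in uncalled values. In Old against Young, Tlr6 was −0.052 without the 4 libraries, and Tlr7 was −0.016 and Tlr8 −0.013 with the microglia covariate. In Old_CP2 against Old, Tlr1 was 0.976 and Tlr4 0.053 without the 4 libraries, Tlr3 was 0.061 and Tlr4 0.082 with the microglia covariate, and leaving out 1 library gave −0.651 to 0.602 for Tlr1, −0.074 to 0.011 for Tlr3 and −0.182 to 0.059 for Tlr4. In Old_CP2 against Young, Tlr13 was −0.075 with the microglia and −0.035 with the choroid plexus covariate, and leaving out 1 library gave −0.063 to 0.093 for Tlr13 and −0.09 to 0.315 for Tlr5. Counts per library were lowest for Tlr8, at 6 to 27 reads.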
